A study of Mus musculus with 2 samples.

Results

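The 9 complement genes C1qa, C1qb, C1qc, C2, C3, C4b, Cfb, C3ar1 and C5ar1 were followed across cell classes of mouse brain in 2 single-cell RNA libraries. They were taken from the gene lists by symbol, and all 9 were listed in both libraries, among 29217 genes in the union of the lists. The series concerns a Balb/c mouse model in which 4T1 cells, a mouse mammary carcinoma line typed as triple-negative breast cancer (TNBC), grow in the brain. Each library is brain tissue of the Balb/c strain on the Singleron GEXSCOPE system, with 1 library per group, so no difference between the libraries has a replicate check and no p-value is given. The labels contradict each other: the library titled control carries the treatment entry with 4T1 metastasis, and the library titled positive carries the entry without it. The libraries are therefore called titled control and titled positive, and no direction with or without metastasis is drawn. The labels state neither age nor sex, and not how many animals gave the tissue.

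Complement is a cascade of plasma and tissue proteins. In the classical pathway C1q, built from the products of C1qa, C1qb and C1qc, binds immune complexes, dying cells or synapses, and its partner proteases cleave C4 and then C2 to form an enzyme that cleaves C3. Factor B, encoded by Cfb, forms the corresponding enzyme of the alternative pathway. Fragments of C3 tag surfaces for uptake, and the small fragments C3a and C5a signal through C3ar1 and C5ar1. In healthy brain microglia are known as the main source of C1q, and complement is known for its part in synapse removal by microglia.

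The titled control library held 10417 barcodes with 55657687 unique molecular identifiers (UMIs, counted RNA molecules) and the titled positive library 10842 barcodes with 98141261, with medians of 4230 and 7384 UMIs per barcode. Cells were clustered without the complement genes, and classes were named from marker lists, which left 17 class and library groups of at least 50 cells. Carcinoma-like cells numbered 5884 in the titled positive library and 1 in the titled control library. The libraries shared 149 barcodes, against 127.7 by the number of possible barcodes. Levels are given as CPM, the UMIs of a gene scaled to the summed UMIs of its class. Intervals are 95% intervals, exact Poisson for levels, exact conditional binomial for ratios and exact Clopper-Pearson for shares of cells, and they cover counting error only.

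The names of the myeloid classes need a measured limit before any value. The titled positive microglia-like cells were a single cluster of 641 cells led by Ccl12, Saa3 and C1qc, with none of the 10 microglia markers among its leading genes, while the titled control cells lay in 2 other clusters, the larger led by P2ry12 and Cx3cr1. Its microglia markers summed to 5010 CPM, which was 16.5% of the titled control microglia-like level, against 857 CPM in the titled positive monocyte or macrophage-like cells. P2ry12 stood at 6413 CPM in microglia-like cells titled control and at 309 CPM in those titled positive. Monocyte or macrophage markers summed to 998 and 3110 CPM in the same groups, and carcinoma markers to 1.92 and 1192 CPM. The monocyte or macrophage-like cells also lay in different clusters: 213 of 220 titled control cells in one led by Lyz2 and Ms4a7, and the titled positive cells in 2 others, led by Arg1 and by Chil3. Their class markers summed to 34558 and 13745 CPM, and the part of this shift in the ratios below was not tested. How far the Ccl12-led cells are microglia as opposed to other myeloid cells was not tested, and each myeloid comparison between the libraries below carries these limits.

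C1qa, C1qb and C1qc are adjacent genes on the minus strand of chromosome 4 (GRCm38): C1qb at chr4:136880129-136886187, C1qc at chr4:136889804-136893065 and C1qa at chr4:136895917-136898803. RefSeq (GRCm38.p6) windows of 250 bases before the start were matched for 5 of the 9 members: C1qb, C1qc, C3, C3ar1 and C5ar1. The RefSeq start can differ from the end of the gene span printed here, which comes from another annotation. The windows of C1qc, C3ar1 and C5ar1 thus lie partly inside their spans. The windows of C1qb (chr4:136886201-136886450) and C1qc (chr4:136892915-136893164) are shown because these neighbours had almost the same pattern over cells. Capitals mark the core motif GAGGAA, or TTCCTC on the other strand, of PU.1, a transcription factor of myeloid cells.
C1qb: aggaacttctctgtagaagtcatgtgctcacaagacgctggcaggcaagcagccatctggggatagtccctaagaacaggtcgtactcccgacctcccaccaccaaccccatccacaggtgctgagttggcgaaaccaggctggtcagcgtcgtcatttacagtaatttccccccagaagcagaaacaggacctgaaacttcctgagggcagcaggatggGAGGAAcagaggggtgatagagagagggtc
C1qc: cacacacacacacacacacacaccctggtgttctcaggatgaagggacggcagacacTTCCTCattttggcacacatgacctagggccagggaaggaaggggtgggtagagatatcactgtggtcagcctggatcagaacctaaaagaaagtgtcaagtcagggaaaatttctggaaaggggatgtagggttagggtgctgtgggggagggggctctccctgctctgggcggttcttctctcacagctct
The motif begins at position -30 from the RefSeq start in C1qb and at -193 in C1qc, and 23.3% of all 32851 windows of this length hold it on either strand. A match describes the letters and is not a binding site. The interferon gamma motif TTCNNNGAA (7.02% of windows) and the longer ISRE motif (2.98%) were searched on both strands and are not spelled in the 5 member windows, and the NF-kB motif (1.41%) is spelled in that of C3ar1 only.

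The C1q subunits were concentrated, in both libraries, in the microglia-like and monocyte or macrophage-like cells. C1qa, the A chain, was at 4433 CPM (4389 to 4477) in titled control microglia-like cells and 5985 CPM (5906 to 6066) in titled positive ones. C1qb, the B chain, was at 6465 CPM (6412 to 6518) and 7524 CPM (7434 to 7614) in the same groups. C1qc, the C chain, was at 5527 CPM (5478 to 5576) and 8174 CPM (8081 to 8268). Each chain was higher in the titled positive microglia-like cells, by log2 ratios of 0.43 for C1qa, 0.22 for C1qb and 0.56 for C1qc, all short of 2-fold. In monocyte or macrophage-like cells C1qa was at 2315 and 3120 CPM, C1qb at 3574 and 3956 CPM and C1qc at 3281 and 3833 CPM, titled control first. The order microglia-like above monocyte or macrophage-like held for each chain in each library, with intervals that did not overlap.

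**Figure D1:**
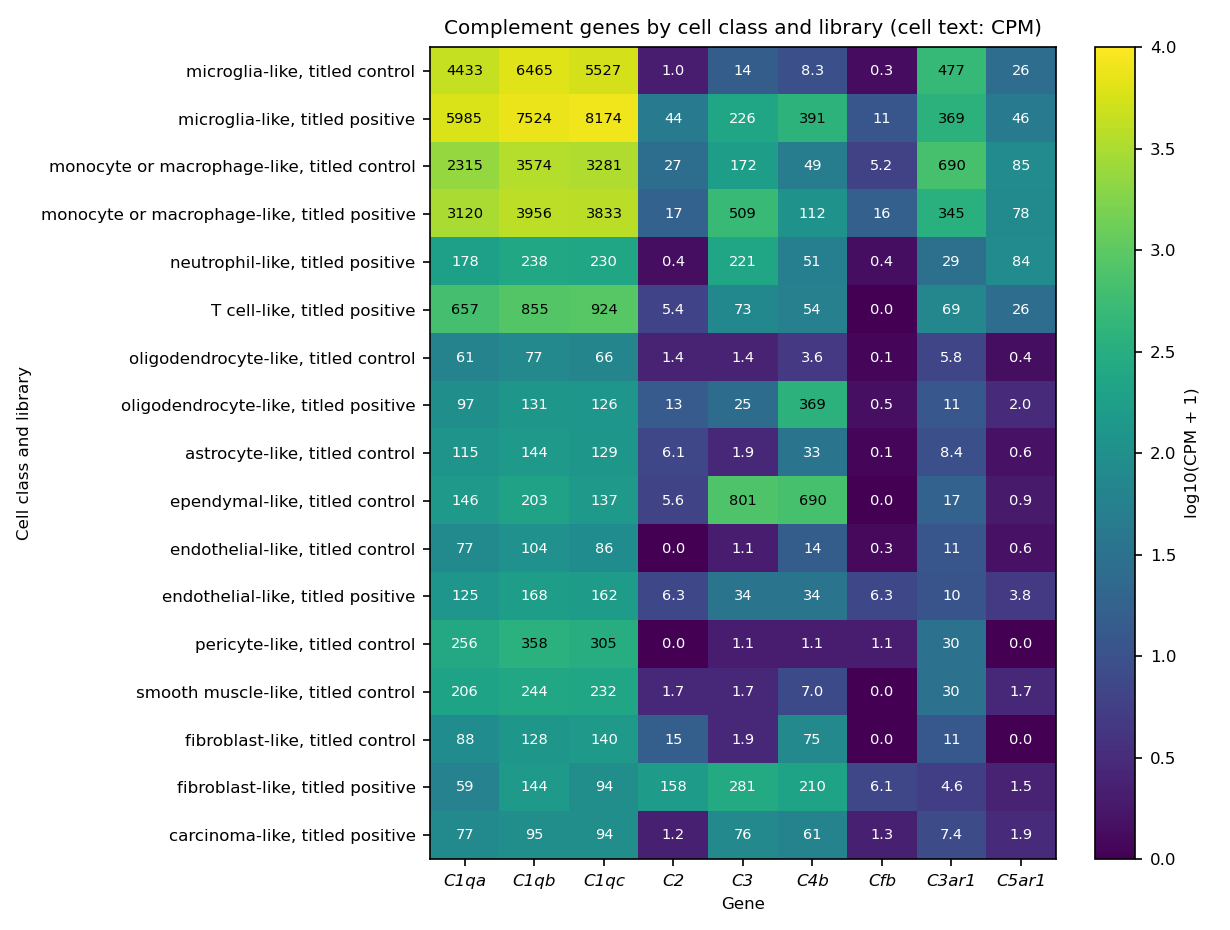
Level of each of the 9 complement genes (columns) in the 17 class and library groups of at least 50 cells (rows), with the CPM printed in each cell and the colour giving log10(CPM + 1). The C1q chains are above 2000 CPM in the 4 microglia-like and monocyte or macrophage-like rows and below 1000 CPM elsewhere, whereas C3 and C4b reach their highest levels in the ependymal-like row.

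Nearly every microglia-like cell held all 3 C1q chains. With each cell thinned to 1000 UMIs, 95.9% of 2370 titled control and 98.6% of 641 titled positive microglia-like cells had a UMI of each chain, and 99.96% and 100% did at the deposited depth. The macrophage class was divided: all 3 chains were found in 55.9% of 220 titled control and 57.2% of 2237 titled positive cells after thinning, and no chain in 26.8% and 22.8%. For comparison, oligodendrocyte-like cells gave 0.057% and 0.597% with all 3 chains after thinning, at median depths of 6168 and 4786 UMIs before it, and carcinoma-like cells gave 0.153% at a median of 10240 UMIs. Without thinning the same share was 23.7% in carcinoma-like cells, and 5.10% and 10.2% in oligodendrocyte-like cells, titled control first. The unthinned share was thus above the thinned one in each of these groups. Between the oligodendrocyte-like groups it did not follow the median depth.

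Outside the myeloid classes the C1q level was compared with the level expected from free RNA, estimated in each group from the markers of other classes. The summed C1q level was 39.5 and 45.1 times the expected level in titled control and titled positive microglia-like cells, and 19.97 and 21.2 times in monocyte or macrophage-like cells. It was 0.832 and 0.565 times the expected level in oligodendrocyte-like cells, 0.654 times in carcinoma-like cells and 1.04 times in astrocyte-like cells. The C1q levels of these classes were thus near or below the level expected from free RNA. The log2 ratios of 0.67, 0.77 and 0.94 for C1qa, C1qb and C1qc in oligodendrocyte-like cells are ratios between such levels. Whether the C1q UMIs of these classes came from free RNA was not tested. T cell-like cells of the titled positive library stood at 3.15 times, at 2436 CPM. That excess was not shared by the class, since its largest cluster, 82 of the 136 cells, held C1qa at 109 CPM against 657 CPM in the class. The proportions of the chains varied little: C1qb gave 34.7% to 39.4% of C1q UMIs in the 4 myeloid groups.

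**Figure D2:**
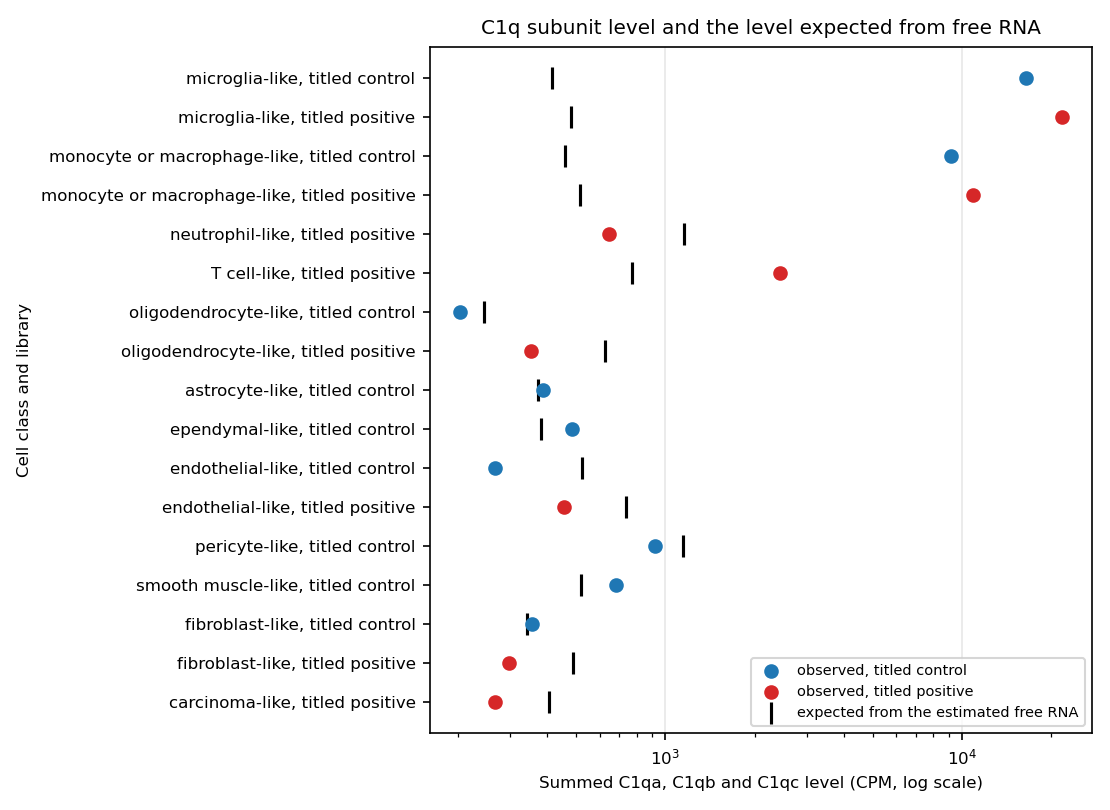
Summed level of C1qa, C1qb and C1qc (CPM, log axis) in the 17 class and library groups, with points for the observed level and black ticks for the level expected from the estimated free RNA. The 4 microglia-like and monocyte or macrophage-like points lie 19.97 to 45.1 times above their ticks, and the other points lie between 0.510 and 3.15 times.

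C1q also separated the macrophage clusters of the titled positive library. C1qa was at 4335 CPM (4293 to 4378) in the 1290 cells of the cluster led by Arg1 and Ccl8, and at 720 CPM (696 to 745) in the 947 cells of the cluster led by Chil3 and Ly6c2. Ly6c2 is a marker of circulating classical monocytes, and Chil3 is expressed by monocytes and neutrophils. C2 followed the same order, at 21.4 CPM (18.5 to 24.6) and 8.55 CPM (6.11 to 11.6). C4b did so too, at 126 CPM (119 to 134) and 84.6 CPM (76.5 to 93.4). C3 did not, at 501 CPM (487 to 516) in the first cluster and 525 CPM (504 to 546) in the second. C3ar1 was slightly lower in the first cluster, at 327 CPM (315 to 338) against 381 CPM (364 to 399). C5ar1 and Cfb had overlapping intervals in the pair, with C5ar1 at 76.4 and 82.1 CPM and Cfb at 16.4 and 14.96 CPM.

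**Figure D3:**
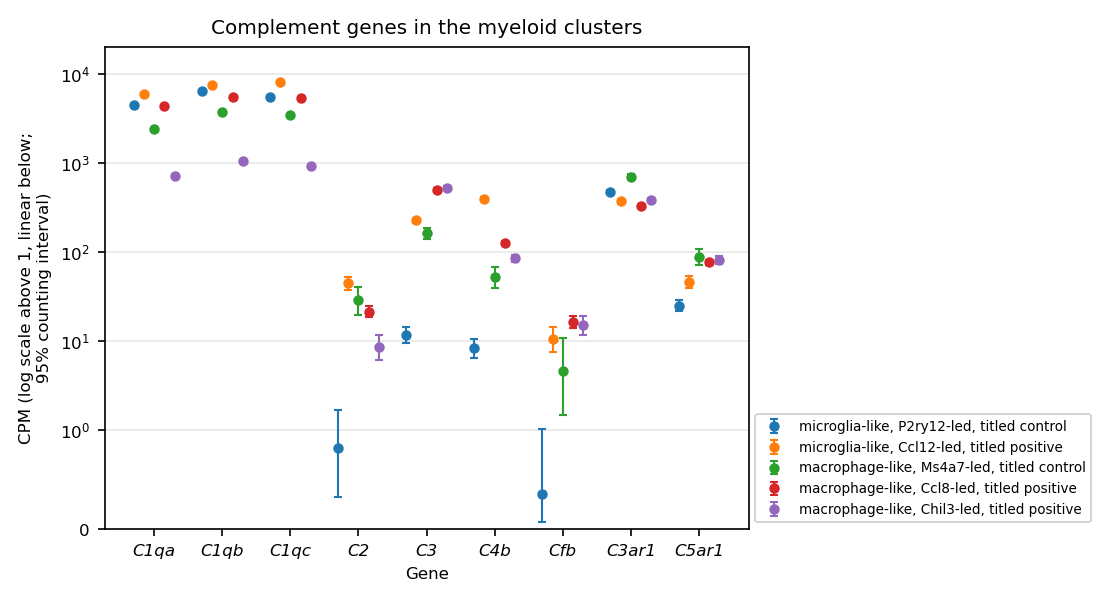
Level of each complement gene (CPM, log axis above 1 and linear below, bars are 95% counting intervals) in the main microglia-like and monocyte or macrophage-like clusters, each named by a leading gene. The Chil3-led cluster is lowest for the C1q chains, with C1qa at 720 CPM, while the P2ry12-led microglia-like cluster is lowest for C2, C3, C4b and Cfb.

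The components downstream of C1q were the members that differed most between the libraries. Across genes with at least 50 UMIs in a class over both libraries, a gene was counted when its CPM differed by at least 2-fold. In microglia-like cells 3 of 8 members tested were past 2-fold, all higher in the titled positive library, where 8.89% of 10628 genes were past 2-fold in that direction and 31.1% in either. In monocyte or macrophage-like cells 3 of 9 were higher, against 11.2% of genes (25.6% in either direction). In oligodendrocyte-like cells 3 of 7 were higher, against 11.5% (27.1%). In fibroblast-like cells 3 of 6 were higher, against 14.4% (31.7%). In endothelial-like cells 1 of 4 was higher, against 5.44% (19.9%). No member tested was past 2-fold lower in any of these classes, where 22.2%, 14.4%, 15.6%, 17.3% and 14.5% of genes were, in that order. Median log2 ratios over the members tested were 0.69, 0.22, 0.94, 0.82 and 0.81 in the same order, and over all genes tested -0.33, -0.14, -0.22, -0.12 and -0.22.

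C4b encodes complement C4, the first substrate of the C1 proteases, and lies at chr17:34728380-34743882. Its microglia-like level was 8.34 CPM (74 UMIs, titled control) against 391 CPM (1400 UMIs, titled positive), a log2 ratio of 5.54 (5.21 to 5.91). Its oligodendrocyte-like level was 3.59 CPM (85 UMIs) against 369 CPM (1636 UMIs), a log2 ratio of 6.68 (6.37 to 7.02). These titled positive levels had overlapping intervals, 370 to 412 CPM in microglia-like and 351 to 387 CPM in oligodendrocyte-like cells, and were the highest of the 8 classes with at least 50 cells in that library. Free RNA was expected to give 17.6 and 23.0 CPM in these groups. After thinning, C4b was found in 0.485% of 3508 titled control and 29.2% of 837 titled positive oligodendrocyte-like cells, and the top 5% of the latter cells gave 20.5% of their C4b UMIs, so the signal was spread over many cells.

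The C4b level within the titled control oligodendrocyte-like cells was low in every cluster, at 2.001 CPM in the Mag-led, 4.96 CPM in the Opalin-led and 3.22 CPM in the Klk6-led cluster. The titled positive cells formed another cluster, led by Apod, Klk6 and Serpina3n. Their oligodendrocyte markers summed to 48790 CPM, against 106259 CPM among titled control cells, and their endothelial markers to 9971 against 131 CPM. Of those 9971 CPM, 9949 CPM came from Ly6c1, while the endothelial markers Cldn5 and Cdh5 were at 7.21 and 0.451 CPM, against 1895 and 139 CPM in titled positive endothelial-like cells. Their carcinoma markers summed to 1153 CPM. The part of the marker shift in the C4b ratio was not tested. Titled control astrocyte-like clusters differed among themselves, from 6.90 CPM (4.37 to 10.4) in the Gdf10-led cluster to 68.7 CPM (56.1 to 83.2) in the Slc6a11-led and 94.0 CPM (51.4 to 158) in the Aqp4-led cluster. Ependymal-like cells, the ciliated lining of the ventricles, held the highest C4b of the titled control library, at 690 CPM (640 to 741). C4b was at 49.4 and 112 CPM in monocyte or macrophage-like cells, a log2 ratio of 1.17 (0.80 to 1.59), although 91.2% of the 57 titled control UMIs came from the top 5% of cells. In fibroblast-like cells it was at 74.7 and 210 CPM, a log2 ratio of 1.47 (0.97 to 2.04), which was 0.88 with each cell named by its own markers. The top 5% of the fibroblast-like cells gave 43.6% of the 39 titled control and 44.2% of the 138 titled positive UMIs. A single titled positive cell gave 37 of the 138. The endothelial-like values of 13.9 and 34.2 CPM gave a log2 ratio of 1.31 (0.56 to 1.997). The titled positive level stood near the 26.98 CPM expected from free RNA. The ratio was -0.15 after subtraction of free RNA and -0.86 after thinning. The summed C1q level in these groups was 0.510 and 0.619 times that expected, so the free RNA estimate may be too high there. C4a, a near-identical gene 65209 bases away, had at most 21 UMIs in any group, so reads assigned between the pair are uncertain.

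**Figure D4:**
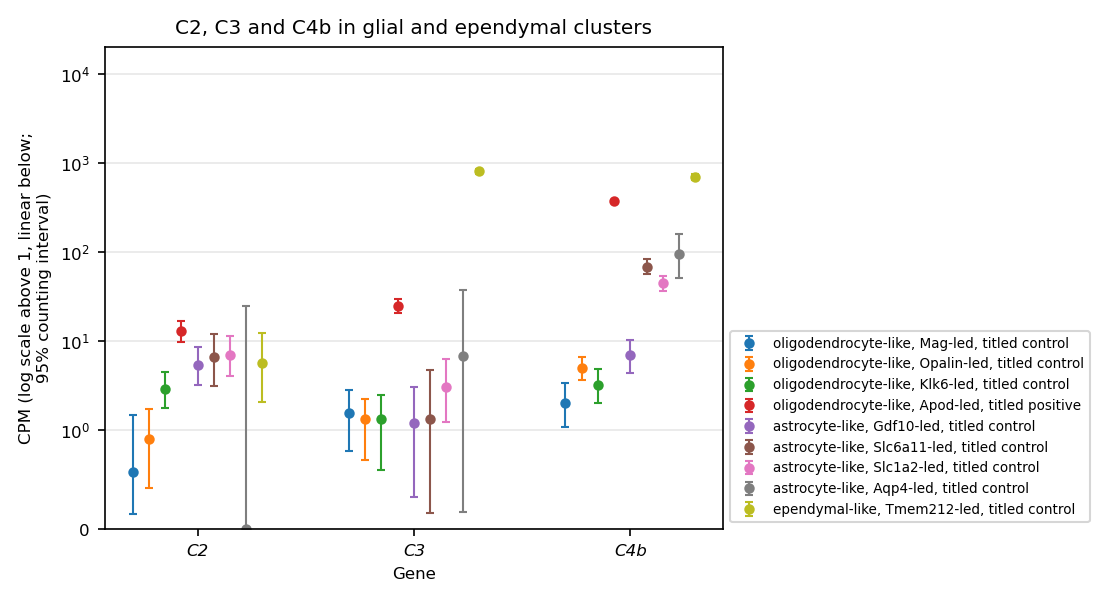
Levels of C2, C3 and C4b (CPM, log axis above 1 and linear below, bars are 95% counting intervals) in oligodendrocyte-like, astrocyte-like and ependymal-like clusters, each named by a leading gene. C4b is at 2.001 to 4.96 CPM in the 3 titled control oligodendrocyte-like clusters and at 369 CPM in the titled positive one.

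C2 encodes the protease that joins C4 in the classical C3 convertase and lies at chr17:34862604-34898265. It was at 1.01 CPM (9 UMIs) in titled control and 44.4 CPM (159 UMIs) in titled positive microglia-like cells, a log2 ratio of 5.38 (4.49 to 6.61). The top 5% of the microglia-like cells gave 100% of the titled control and 60.4% of the titled positive UMIs. In monocyte or macrophage-like cells the order was the opposite, with 26.9 CPM (31 UMIs) and 17.1 CPM (238 UMIs) and a log2 ratio of -0.67 (-1.20 to -0.06). The top 5% of these cells gave 74.2% of the titled control and 97.9% of the titled positive UMIs, so the ratio rests on few cells. The difference between these 2 classes was not tested. The highest C2 level was in the 72 titled positive fibroblast-like cells, at 158 CPM (129 to 191), against 15.3 CPM (8 UMIs) in the 96 titled control cells, a log2 ratio of 3.28 (2.33 to 4.61). The fibroblast-like cells lay mostly in different clusters in the libraries, and their fibroblast markers summed to 3241 CPM (titled control) against 25923 CPM (titled positive). Ependymal markers went with them, at 213 against 1412 CPM, and smooth muscle markers, at 67.1 against 2243 CPM. Their part in the fibroblast-like C2, C3 and C4b ratios was not tested. Oligodendrocyte-like C2 was at 1.39 and 12.9 CPM, a log2 ratio of 3.20 (2.56 to 3.87), with 1.67 CPM expected from free RNA in the titled positive cells. The top 5% of these cells gave 100% of the 33 titled control and 91.2% of the 57 titled positive UMIs. UMIs this few make such shares high by themselves. Among the 9 titled control classes C2 was highest in monocyte or macrophage-like cells, whose interval of 18.2 to 38.1 CPM overlapped only that of the fibroblast-like cells, 6.62 to 30.2 CPM.

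C3, the component on which all pathways converge, lies at chr17:57203970-57228136. Titled control ependymal-like cells had the highest C3 level of the 17 groups, 801 CPM (749 to 857). There 51.6% of 161 cells had a UMI at the deposited depth and 37.3% after thinning. The top 5% of these cells gave 36.3% of the 852 UMIs, and 1 cell gave 71 of them. Titled positive monocyte or macrophage-like cells followed, at 509 CPM (497 to 521). The titled control cells of that class were at 172 CPM (148 to 197), which gave a log2 ratio of 1.57 (1.37 to 1.78). The microglia-like C3 level was 14.0 CPM (124 UMIs) against 226 CPM (810 UMIs), a log2 ratio of 4.01 (3.74 to 4.30). After thinning, 0.717% and 17.6% of these cells had a C3 UMI. Neutrophil-like cells of the titled positive library were at 221 CPM (203 to 241), with 64.7 CPM expected from free RNA. Their estimated free RNA share was 43.0%, the highest of the 17 groups. Carcinoma markers summed to 5547 CPM in them, 50.8% of the carcinoma-like level, and monocyte or macrophage markers to 3511 CPM. The part of these in the neutrophil-like levels was not tested.

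Further C3 values rest on few cells or are limited by free RNA. In fibroblast-like cells 1 UMI (titled control) and 185 UMIs (titled positive) gave 1.92 and 281 CPM, a log2 ratio of 6.62 (4.70 to 12.51). The top 5% of the 72 titled positive cells gave 50.3% of those UMIs, and 1 cell gave 60 of them. In oligodendrocyte-like cells C3 was at 1.39 and 24.8 CPM, a log2 ratio of 4.14 (3.58 to 4.76). The titled positive level was below the 35.1 CPM expected from free RNA. The summed C1q level in those cells was 0.565 times that expected, so the estimate may be too high there. Whether this C3 count is background was not tested. The carcinoma-like cells held C3 at 76.0 CPM and C4b at 61.2 CPM, above the 22.8 and 14.9 CPM expected. Within them the cluster led by Wfdc2 and Lcn2 was highest for both, with C3 at 177 CPM (170 to 184) and C4b at 143 CPM (136 to 149), and the cluster led by Krt18 and Krt8 with Prkg2 and Msln was lowest, with C3 at 24.8 CPM (22.3 to 27.6) and C4b at 25.5 CPM (23.0 to 28.3).

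Cfb, at chr17:34856374-34862518 and 85 bases from C2, was low in every class. Its highest level was 15.9 CPM (13.9 to 18.2, 222 UMIs) in titled positive monocyte or macrophage-like cells, against 5.20 CPM (1.91 to 11.3, 6 UMIs) in the titled control cells, a log2 ratio of 1.51 (0.47 to 3.08). Titled positive microglia-like cells were at 10.6 CPM (38 UMIs), and titled control microglia-like cells at 0.338 CPM (3 UMIs). These 41 UMIs are under the minimum for the count of members. An annotated readthrough gene, Gm20547, overlaps Cfb by 6107 bases and C2 by 19439 bases and has no row in the gene lists, so reads shared with it are uncertain for both.

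**Figure D5:**
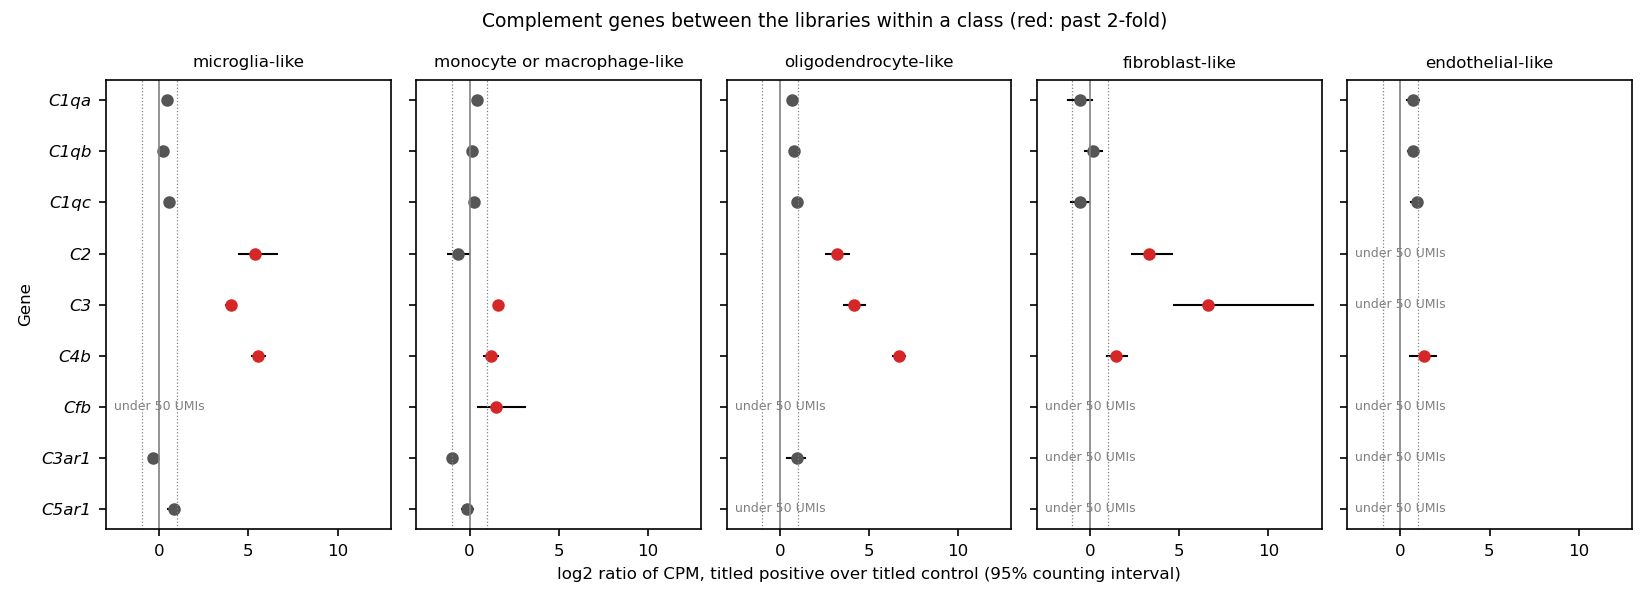
Log2 ratio of CPM, titled positive over titled control, for each member in the 5 classes with at least 50 cells in each library, with 95% counting intervals, dotted lines at 2-fold and red points past it. C4b is red in all 5 panels, with ratios from 1.17 in monocyte or macrophage-like to 6.68 in oligodendrocyte-like cells, while the C1q chains stay within 2-fold.

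The receptors for the small fragments were myeloid and showed other orders. C3ar1, the C3a receptor (chr6:122847138-122856161), was at 690 CPM (642 to 739) in titled control monocyte or macrophage-like cells and at 345 CPM (335 to 355) in the titled positive ones, a log2 ratio of -1.0 (-1.11 to -0.89) that fell just short of 2-fold. The microglia-like values were 477 CPM (463 to 492) and 369 CPM (349 to 389), a log2 ratio of -0.37 (-0.46 to -0.28). The monocyte or macrophage-like level was thus above the microglia-like level in the titled control library, while in the titled positive library the 2 levels had overlapping intervals. C3ar1 in oligodendrocyte-like cells, at 5.82 and 11.05 CPM, was below the 7.80 and 16.8 CPM expected from free RNA.

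C5ar1, the C5a receptor that draws neutrophils and macrophages to sites of activation (chr7:16246743-16259540), had its titled control peak in monocyte or macrophage-like cells, at 84.9 CPM (68.9 to 103). In the titled positive library it was at 83.9 CPM (72.5 to 96.6) in neutrophil-like and 78.3 CPM (73.7 to 83.1) in monocyte or macrophage-like cells, with overlapping intervals. The neutrophil-like level carries the marker limit given with C3. The monocyte or macrophage-like values gave a log2 ratio of -0.12 (-0.42 to 0.20). In microglia-like cells C5ar1 was at 26.2 CPM (22.9 to 29.8) and 45.8 CPM (39.0 to 53.3), a log2 ratio of 0.81 (0.51 to 1.10). In classes other than these, C5ar1 was below 4 CPM except in T cell-like cells, at 25.7 CPM. The largest cluster of that class, 82 of the 136 cells, held it at 5.20 CPM (2 UMIs). Monocyte or macrophage markers summed to 2657 CPM in the T cell-like class, and their part in its C5ar1 level was not tested.

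Set against each other within a library, the 2 macrophage classes differed in which members they favoured. Within the titled control library, the microglia-like level was below that of monocyte or macrophage-like cells for C3 (log2 ratio -3.61), C4b (-2.57) and C5ar1 (-1.70), and these were the 3 of 7 members tested that passed 2-fold, against 22.7% of genes. In the titled positive library C4b (1.80), C2 (1.38) and C1qc (1.09) were higher in microglia-like cells and C3 (-1.17) was lower, which made 4 of 9 past 2-fold, against 11.5% of genes. C4b thus stood on opposite sides in the libraries, with the limit on the naming given above. So did C2, at -4.67 (-5.98 to -3.62) in the titled control library, where its 9 and 31 UMIs were under the minimum for the count. Both titled control ratios rest on few monocyte or macrophage-like cells. The top 5% of those cells gave 91.2% of the 57 C4b UMIs and 74.2% of the 31 C2 UMIs.

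Across the 17 groups each C1q chain was most like the other chains and then Ctss, which encodes the lysosomal protease cathepsin S. Pearson's r of log2(CPM + 1) was 0.997 between C1qa and C1qc, 0.995 between C1qa and C1qb, and 0.987 between C1qa and Ctss, over 13892 genes considered. C3ar1 was nearest to Cd300c2 (0.986) and then to C1qa (0.978), and C5ar1 to B430306N03Rik (0.965) and Ncf4 (0.962), a subunit of the phagocyte oxidase. The other members had looser neighbours: C3 had Cd44 (0.868), C4b had Gm4951 (0.842) and Herc6 (0.821), Cfb had Dram1 (0.843) and Ccl8 (0.832), and C2 had Gpx3 (0.759). These are descriptions over groups that share 2 libraries and their free RNA.

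Of the 45 other complement genes in a list of 54, the C1 proteases and the soluble regulators varied most between the libraries. Serping1, the inhibitor of the C1 proteases, was at 1.31 and 245 CPM in oligodendrocyte-like cells, a log2 ratio of 7.53 (7.04 to 8.12), with a microglia-like pair of 2.48 and 91.0 CPM. Its highest level was in titled positive fibroblast-like cells, at 1399 CPM against 579 CPM. C1ra, a C1 protease, was past 2-fold higher in all 5 classes compared, with 7.80 and 74.9 CPM in monocyte or macrophage-like cells. Cfp, properdin, which stabilises the alternative convertase, was at 835 and 674 CPM in monocyte or macrophage-like cells. Hc, which encodes C5, had 120 CPM in ependymal-like cells and at most 5.37 CPM in the other groups. Of the other genes tested, 2 of 13 were past 2-fold higher and 4 lower in microglia-like cells, 4 and 4 of 16 in monocyte or macrophage-like cells, 3 and 5 of 17 in oligodendrocyte-like cells, 4 and 4 of 9 in fibroblast-like cells, and 4 and 1 of 11 in endothelial-like cells. Over all genes tested, the shares past 2-fold higher were 8.89%, 11.2%, 11.5%, 14.4% and 5.44% in the same order of classes. Those past 2-fold lower were 22.2%, 14.4%, 15.6%, 17.3% and 14.5%. With so few complement genes per class, no difference from these shares is read.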

How the data were processed

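Polyadenylated RNA of single brain cells was captured on the Singleron GEXSCOPE system, per the labels' protocols. Cell Ranger and the build GRCm38 are named per the submitters' processing notes; their settings are not stated there. The deposited values are raw UMI counts per gene and barcode, which the authors did not normalize. Groups follow the titles of the 2 libraries.

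Barcodes under 200 genes or over 20% mitochondrial UMIs were dropped (11 and 5), and Scrublet doublets were removed per library (5.77% titled control, 2.77% titled positive), leaving 9806 and 10537 cells. They were clustered jointly with scanpy 1.11.5 (Python 3.11.15): 2000 variable genes without complement genes, 30 principal components, 15 neighbours, Leiden resolution 1. A cluster was named where its markers stood on average 1.5 or more above the median cluster in log2 CPM (pseudocount 10 CPM) with at least 3 detected in 10% of cells. Clusters that also fitted a rival list were sub-clustered once, and those still mixed (4.33% and 2.14% of cells) were left out. These naming thresholds were set after clusters had been seen.

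UMIs were summed per class and library. Ratios used a pseudocount of 0.5 counts and needed 50 UMIs over both libraries and 50 cells in each; class totals set the scale. For thinned shares each cell was drawn down to 1000 UMIs, which left no cell out. The free RNA share of a group was the median, over markers of other classes, of its level over the library's. No test across conditions was run; ratios were tested on simulated data. The text names the 9 members, other complement genes with at least 100 UMIs in a group and 100 CPM in their highest group (not all of them are reported here), and the 3 genes most alike to each member; clusters are called by leading genes, chosen after these were seen. Other genes named are markers that check a class. The members and lists were chosen with earlier results of these data known. Gene positions are from the GENCODE annotation of GRCm38.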

Additional observations from a re-analysis of the deposited data

Results flagged for a closer look

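3 members had counting intervals on opposite sides of 0 in different classes under the same contrast, titled positive over titled control; with 1 library per group none of these differences was tested. C2 had a log2 ratio of 5.38 for microglia-like cells against -0.67 for monocyte or macrophage-like cells, where it rests on few cells. C3ar1 had 0.93 for oligodendrocyte-like cells against -1.0 for monocyte or macrophage-like cells, and its oligodendrocyte-like levels were below those expected from free RNA. C1qc had 0.94 in oligodendrocyte-like and -0.57 in fibroblast-like cells. The latter was 1.94 with each cell named by its own markers, 0.06 with mitochondrial UMIs at most 10% and -4.94 with free RNA subtracted. The summed C1q level was 0.565 and 0.610 times the level expected from free RNA in the titled positive cells of these classes.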

How the results depend on the processing

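Of 364 log2 ratios of members recomputed under other settings, 274 stayed within the counting interval, 88 moved beyond it and 2 took the opposite sign of a ratio past 2-fold: endothelial-like C4b went from 1.31 to -0.15 with free RNA subtracted and to -0.86 when thinned. Of the 21 ratios short of 2-fold, 7 took the opposite sign in at least 1 alternative: C1qa, C1qb and C1qc in fibroblast-like, C1qb, C1qc and C5ar1 in monocyte or macrophage-like and C3ar1 in microglia-like cells, the furthest being fibroblast-like C1qa, from -0.57 to 1.90, and C1qc, from -0.57 to 1.94, with own markers. C4b, C3 and C2 in microglia-like and oligodendrocyte-like cells stayed past 2-fold in every alternative run; the lowest were 5.51, 3.78 and 4.92 in microglia-like and 6.31, 2.50 and 2.37 in oligodendrocyte-like cells, except that oligodendrocyte-like C3 had no value with free RNA subtracted, which left at most 3 counts. C4b in monocyte or macrophage-like cells stayed past 2-fold in 7 of 11, its lowest being 0.81 with doublets kept, and in fibroblast-like cells in 10 of 11, its lowest being 0.88 with own markers. The number of members past 2-fold moved by more than 1.5 times in 3 classes. In endothelial-like cells it went from 1 to 3 with each cell named by its own markers, 0 with free RNA subtracted, 2 with genes of at least 10 UMIs and 5 with no minimum. In fibroblast-like cells it went from 3 to 5 with doublets kept, 6 with own markers and 6 with no minimum. In oligodendrocyte-like cells it went from 3 to 7 with doublets kept, 5 with the median of all genes set to 0 and 5 with no minimum. The cause was not tested. The median of genes with 50 UMIs in both libraries was shifted by -0.13 in microglia-like, -0.15 in monocyte or macrophage-like and -0.19 in oligodendrocyte-like cells. Naming by own markers left 97 titled positive microglia-like cells, and there, as after thinning, oligodendrocyte-like cells had the highest C4b of that library. The setting without barcodes found in both libraries was chosen after seeing the data. No paired analysis was possible because each group has 1 library.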

Other observations

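Classes with fewer than 50 cells in the titled positive library were left out of the comparisons, and their values are given with their cell numbers. The 21 titled positive astrocyte-like cells held C4b at 450 CPM (332 to 597), with a C4b UMI in 17 of them, beside 33.3 CPM in the 1912 titled control cells. C2 was at 122 CPM (64.9 to 209) in the same 21 cells, beside 6.06 CPM. The 38 titled positive ependymal-like cells held C3 at 1382 CPM (1226 to 1553) and C4b at 968 CPM (839 to 1113), beside 801 and 690 CPM in the 161 titled control cells.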
